A study of Homo sapiens with 8 samples.

Results

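The 6 genes described here, MMS22L, SPEN, XPO1, VEZT, YLPM1 and ZCCHC11, are long transcripts chosen by their density of UVC-crosslinked sites of the polypyrimidine tract binding protein (PTB). Their members are the peaks that overlap the hg19 interval of each gene on its own strand in 5 deposited peak lists. They numbered 387 of 118434 peaks for PTB crosslinked with UVC, 132 of 83725 for PTB crosslinked with UVA and 132 of 58213 in a published iCLIP map of PTB. The 2 control lists gave 6 of 3809 peaks for PTB without UV and 3 of 2136 for yellow fluorescent protein (YFP) crosslinked with UVC. That density is therefore given as a description and supports nothing further.

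All GoldCLIP samples came from 293T, a human embryonic kidney line, carrying a transgene for either Halo-tagged PTB or Halo-tagged YFP and grown with puromycin. The Halo tag bonds to beads, so the protein is pulled down with its crosslinked RNA without a gel. Each of the 4 groups (PTB UVC, PTB UVA, PTB without UV, YFP UVC) had 2 samples, deposited as 1 pooled list with no replicate values and no read numbers. The submitters derived the iCLIP list from an earlier study with the methods of this series. No UV dose and no photoreactive nucleoside are given in the labels used here, so the UVA and UVC arms are compared only as lists. Every number below therefore counts peaks in single lists of unknown depth, and no test between lists was possible. Intervals are exact 95% intervals that cover counting error only and treat sites as independent.

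PTB is an RNA-binding protein with several RNA recognition motifs that prefer runs of U and C. It acts mainly in the nucleus, where it binds introns of precursor RNA and represses the use of nearby exons, and it also takes part in 3′ end processing and in translation. CLIP peaks of such a protein can therefore fall anywhere along a precursor transcript, including introns many kilobases long. The genes serve different functions. MMS22L works with TONSL in the repair of stalled replication forks, SPEN is a large nuclear corepressor with RNA recognition motifs, and XPO1 (also called CRM1) is the main nuclear export receptor for proteins. VEZT encodes vezatin, a membrane protein of cell junctions, YLPM1 a nuclear protein that binds protein phosphatase 1, and ZCCHC11 (now TUT4) a terminal uridylyltransferase that adds U residues to RNA.

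The intervals span from 60.4 to 141 kb. MMS22L lies on chromosome 6 from 97590037 to 97731093 on the minus strand and is the longest. XPO1, on chromosome 2 from 61704984 to 61765418 (minus), is the shortest. ZCCHC11 lies on chromosome 1 from 52888947 to 53018764 (minus, 130 kb), and SPEN on the same chromosome from 16174359 to 16266955 (plus, 92.6 kb). VEZT occupies chromosome 12 from 95611522 to 95696566 (plus, 85.0 kb) and YLPM1 chromosome 14 from 75230069 to 75304013 (plus, 73.9 kb). Exons, introns and UTRs of hg19 were not used here, so sites are placed by position and by distance from the 5′ end of the interval. By the gene names of RefSeq in the newer GRCh38.p14 build, MMS22L and YLPM1 overlap no other gene. SPEN overlaps SPEN-AS1 and the small nucleolar RNA gene LOC124904815, XPO1 overlaps USP34-DT, VEZT the pseudogenes CBX3P5 and RNU6-808P, and ZCCHC11 the noncoding LOC105378723.

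Peaks within 20 nt of each other on a strand were merged into sites, because the number of peaks per site depended on the strand. In the UVC list the 3 plus-strand members held 1.62 peaks per site and the 3 minus-strand members 1.13, and the whole list held 1.74 and 1.18. The lists of UVA (1.20 and 1.17 in the members) and iCLIP (1.08 and 1.25) differed less between the strands. Sites are therefore the measure used for comparing genes.

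UVC sites outnumbered those of every other list in all 6 genes. MMS22L held 66 UVC, 40 UVA and 31 iCLIP sites. SPEN held 51 UVC sites but only 10 UVA and 8 iCLIP sites. XPO1 held 42 UVC, 24 UVA and 13 iCLIP sites. VEZT, with 39 UVC, 7 UVA and 16 iCLIP sites, and ZCCHC11, with 47 UVC, 18 UVA and 28 iCLIP sites, had more iCLIP than UVA sites. YLPM1 was close to even between these lists, with 41 UVC, 13 UVA and 15 iCLIP sites. Together the genes held 286 UVC, 112 UVA and 111 iCLIP sites. More UVC than UVA and more UVC than iCLIP sites were also found in 81.0% of the 353 same-strand windows of 100 kb that held at least 20 UVC sites, which serve as the background below.

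**Figure D1:**
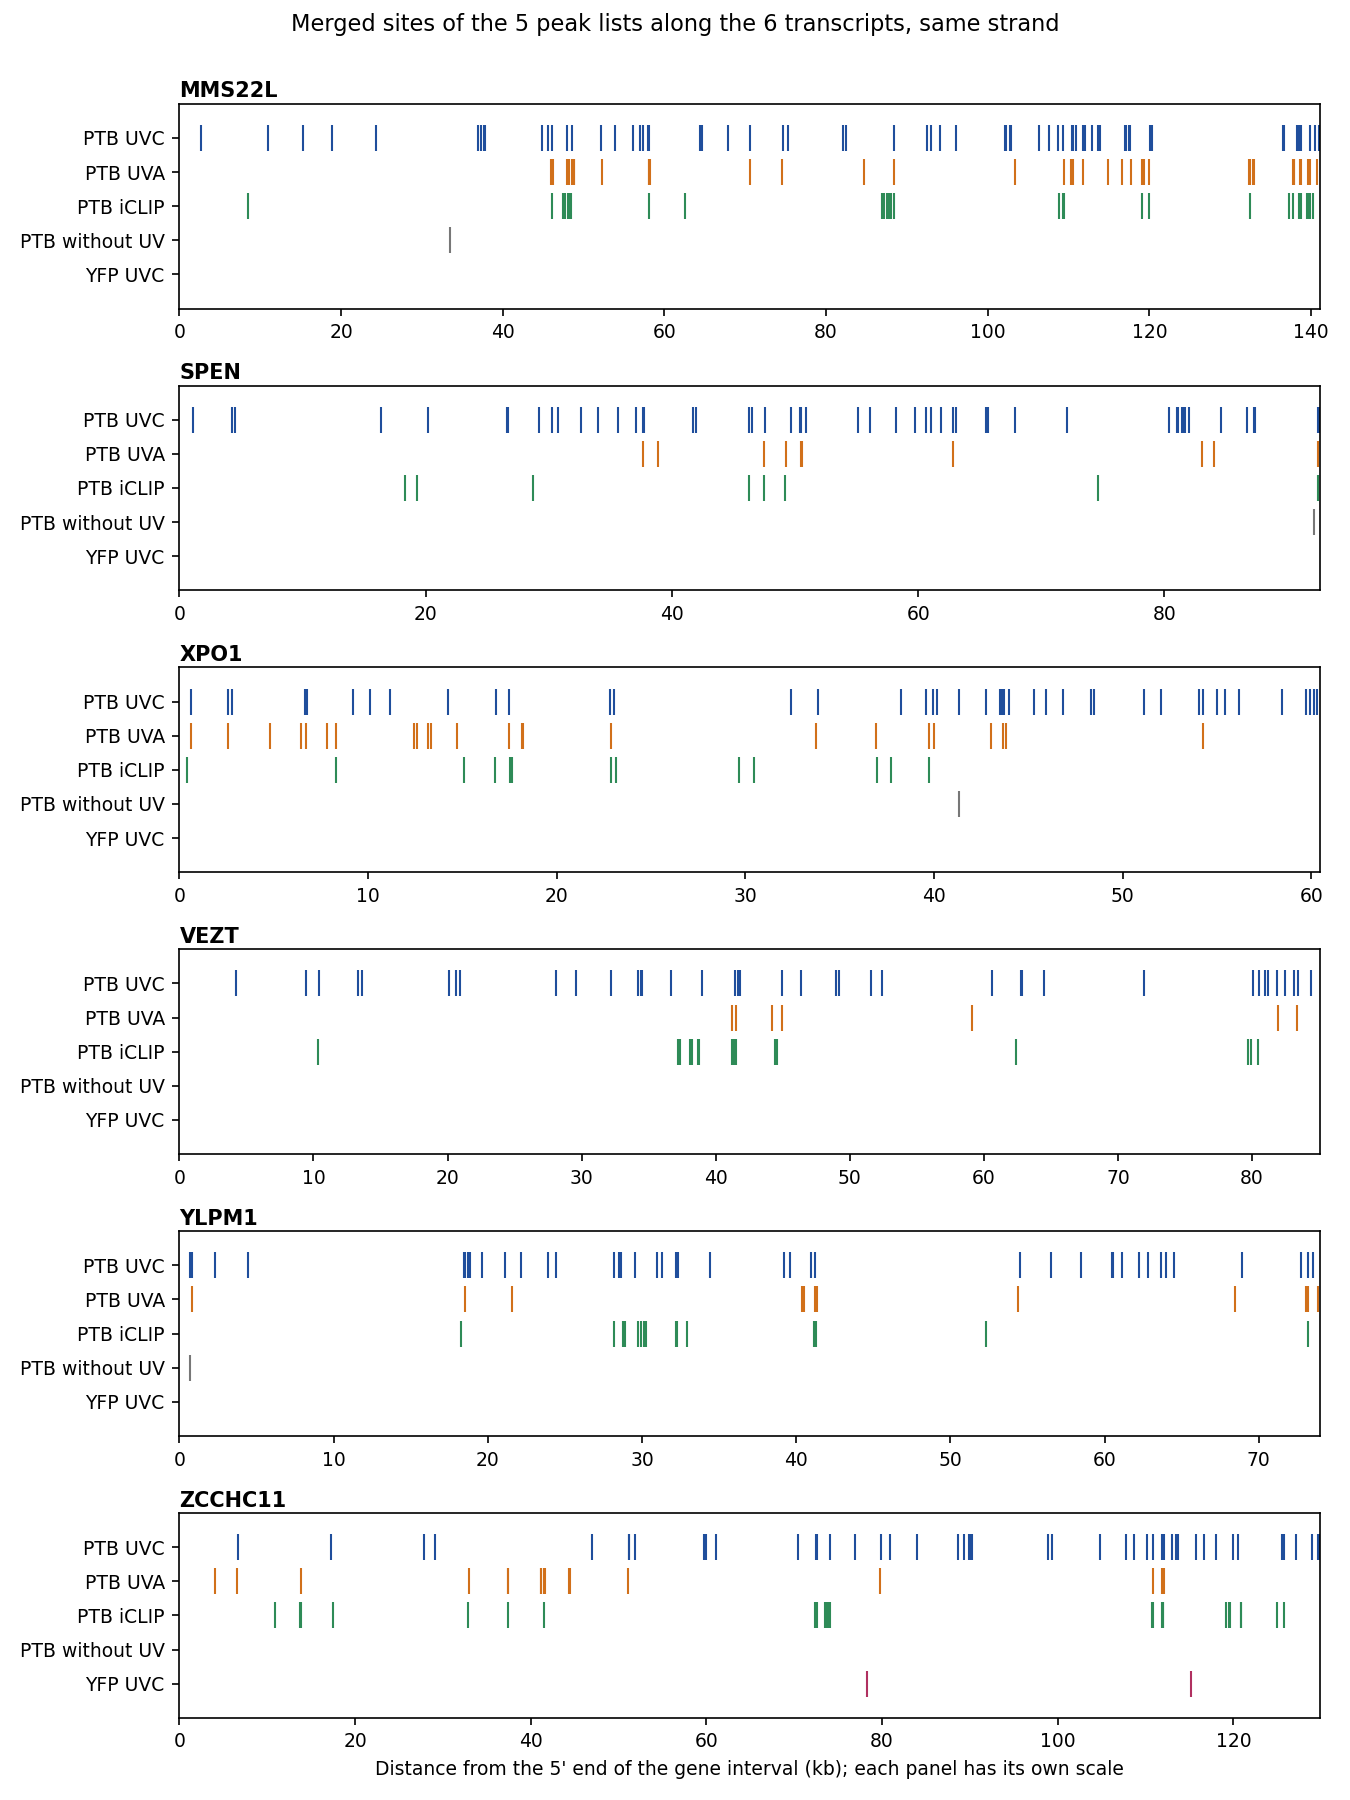
Positions of merged sites along the 6 transcripts, by list; the x axis is the distance from the 5′ end of each gene interval in kb and each tick is the midpoint of 1 site. UVC sites run along nearly the whole length of every gene, whereas UVA and iCLIP sites, which are fewer, leave more parts empty. The control lists hold 4 (PTB without UV) and 2 (YFP UVC) sites in all.

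Per length, XPO1 was the densest in UVC sites at 0.695 per kb (interval 0.501 to 0.939). YLPM1 (0.554, interval 0.398 to 0.752) and SPEN (0.551, interval 0.410 to 0.724) followed, then MMS22L (0.468, interval 0.362 to 0.595) and VEZT (0.459, interval 0.326 to 0.627). ZCCHC11 was lowest at 0.362 (interval 0.266 to 0.481). Neighbours in this order had overlapping intervals, and only the 2 ends, XPO1 and ZCCHC11, were separated. The UVA order was different: XPO1 was again highest at 0.397 per kb (interval 0.254 to 0.591) and MMS22L next at 0.284 (interval 0.203 to 0.386). VEZT, at 0.0823 (interval 0.0331 to 0.170), and SPEN, at 0.108 (interval 0.0518 to 0.199), were lowest, and their intervals lay below that of XPO1. In the iCLIP list 5 genes lay between 0.188 (VEZT) and 0.220 (MMS22L) with widely overlapping intervals. SPEN stood at 0.0864 (interval 0.0373 to 0.170), and this interval overlapped those of the other 5 genes. UVC peaks covered between 1.35% (ZCCHC11) and 2.65% (XPO1) of the nucleotides of the intervals.

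**Figure D2:**
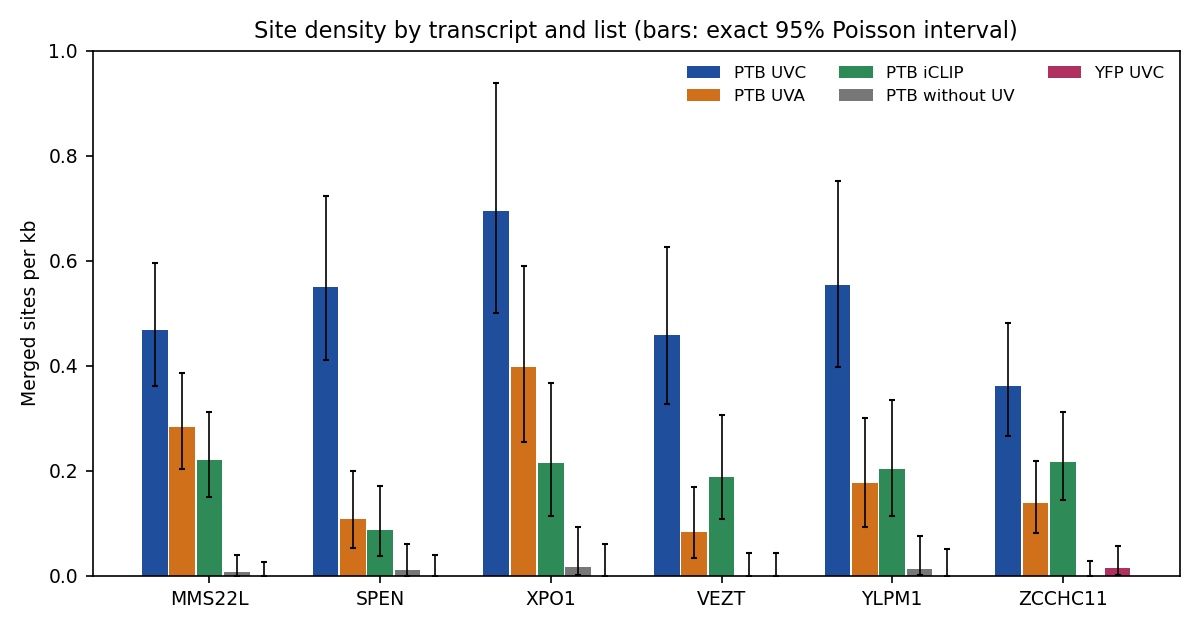
Merged sites per kb (y axis) in each transcript and list; bars are single pooled lists and error bars exact 95% Poisson intervals. The UVC bars run from 0.362 per kb in ZCCHC11 to 0.695 in XPO1, and the UVA bars from 0.0823 in VEZT to 0.397 in XPO1.

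The sites kept closely to the strand and the limits of the genes. No peak of any of the 5 lists lay on the opposite strand within any of the 6 intervals. Such empty opposite strands were also found for 62.9% of the dense background windows. In the 50 kb beyond each end on the same strand, UVC sites numbered 8 over 12 flanks of 600 kb in all. No flank held more than 0.08 UVC sites per kb, against 0.362 to 0.695 inside the genes. Since the genes were chosen for dense UVC sites in these intervals, this UVC contrast follows largely from the choice. UVA sites numbered 0.192 per kb inside and 0.015 in the flanks, and iCLIP sites 0.190 and 0.00667. Neither list is independent of that choice. The flanks of MMS22L and VEZT held no site of the UVC, UVA or iCLIP list on either side. Those of SPEN held 1 UVC and 2 UVA sites upstream and none downstream. XPO1 had 2 UVC sites downstream, and YLPM1 had 1 UVC, 4 UVA and 1 iCLIP site upstream and 1 UVA site downstream. ZCCHC11 had 4 UVC, 2 UVA and 3 iCLIP sites downstream.

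To set the genes against the rest of the genome, each was ranked among same-strand windows of its own length that held any PTB site. By UVC sites at most 4 windows exceeded a gene: none of 15571 for MMS22L, 1 of 19436 for SPEN, 1 of 24349 for XPO1, 2 of 20343 for VEZT, 4 of 21840 for YLPM1 and 1 of 16256 for ZCCHC11. These ranks follow from how the genes were picked. The UVA and iCLIP ranks were not used in the choice but are not independent of it. The 353 windows dense in UVC sites held a median of 10 UVA and 11 iCLIP sites, whereas the median over all windows of each gene's length was 1 or 2 UVA sites and 1 iCLIP site. Windows are also not genes and hold untranscribed sequence. By UVA sites MMS22L was exceeded by 47 windows and XPO1 by 113. YLPM1 was exceeded by 1076, ZCCHC11 by 684, SPEN by 1891 and VEZT by 3089, which put VEZT above 82.2% of windows. By iCLIP sites MMS22L (12 windows higher) and ZCCHC11 (17) ranked highest, and SPEN, with 1695 windows higher, lowest. Thus MMS22L was near the top in all 3 PTB maps and SPEN in the UVC map only, a description without a test.

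**Figure D3:**
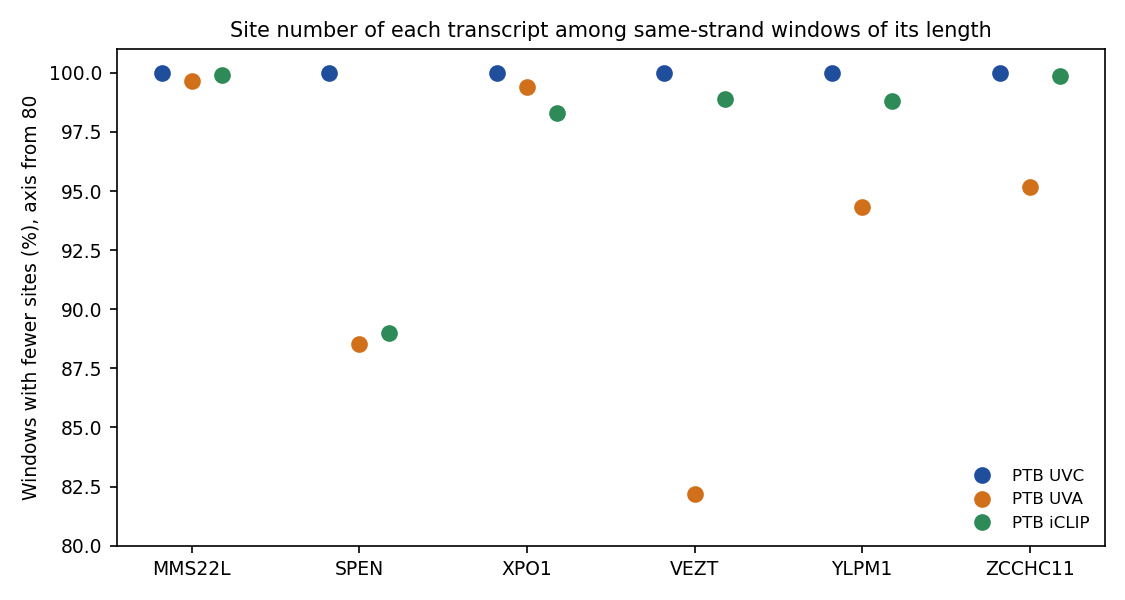
Percent of same-strand windows of the gene's own length with fewer sites (y axis, starting at 80) for each transcript and PTB list. UVC points lie at the top by choice of the genes; the UVA points reach down to 82.2% for VEZT and 88.5% for SPEN, and the iCLIP point of SPEN to 89.0%.

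The UVC to UVA ratio of site counts was 2.55 over the 6 genes (interval 2.05 to 3.21), against 1.15 over the whole lists. Single genes ranged from 1.65 in MMS22L (interval 1.098 to 2.51) and 1.75 in XPO1 (interval 1.04 to 3.02), through 2.61 in ZCCHC11 and 3.15 in YLPM1, to 5.10 in SPEN (interval 2.56 to 11.3) and 5.57 in VEZT (interval 2.46 to 14.8). The ratio was at least 2-fold above that of the whole lists in 4 of 6 genes, SPEN, VEZT, YLPM1 and ZCCHC11. The same was true of 50.4% of the dense background windows, and since UVC density chose the genes, nothing is read from this count. Over the 6 genes summed, the excess was lost when low-scoring peaks were left out. With only peaks at or above the median score of each list, 130 UVC, 108 UVA and 99 iCLIP sites were left, and the ratio fell to 1.20, below the 1.35 of the whole lists in that setting. MMS22L then held 20 UVC against 40 UVA sites and XPO1 19 against 24. SPEN, with 31 UVC against 6 UVA sites (5.17, or 3.83-fold over the whole lists), was then the only gene at least 2-fold above the whole lists. VEZT, with 18 against 7 sites (2.57), was 1.90-fold above them. The iCLIP to UVA ratio, which the choice of genes did not use, was 0.991 (interval 0.755 to 1.30) in the 6 genes against 0.748 (interval 0.740 to 0.757) over the whole lists. It was lowest in XPO1 (0.542, interval 0.253 to 1.11) and highest in VEZT (2.29, interval 0.890 to 6.57), and the intervals of VEZT and ZCCHC11 (1.56, interval 0.831 to 2.99) lay above 0.748 while those of the other 4 genes held it. Leaving out some single genes kept the joint ratio higher, but its interval then held 0.748. This was so without VEZT (0.905, interval 0.678 to 1.21), without YLPM1 (0.970, interval 0.725 to 1.30) or without ZCCHC11 (0.883, interval 0.649 to 1.20).

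For comparison, 100 kb of the minus strand of chromosome 19, starting at 9000001 and ending at 9100000, had the opposite balance, with 8 UVC, 56 UVA and 19 iCLIP sites. A like stretch of chromosome 11 (plus strand, 65200001 to 65300000) was dense in all PTB lists, with 45 UVC, 49 UVA and 41 iCLIP sites. It also held 7 sites of PTB without UV and 9 of YFP, more control sites than all 6 genes together. The adjoining 100 kb (65100001 to 65200000) held 24 UVC, 53 UVA and 45 iCLIP sites and 0 of either control, so dense PTB sites went without control sites there. In the stretch from 65200001 to 65300000 UVC peaks had a median score of 86, equal to the highest UVC score in the 6 genes. The median was 30 in the adjoining stretch.

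In the deposited values the peak score is higher for smaller p-values and has a limit of 1000, which was read from the values. It ranks peaks within a list, and since it depends on depth it does not measure binding between lists. UVC peaks of the 6 genes scored low within their own list. Their median was 17 and their highest 86, whereas the whole UVC list had a median of 19 and 1.93% of peaks above 100. None of the 387 member peaks exceeded 100, and a count of 0 allows a share of up to 0.775% (3 counts of the total; the exact 95% interval reaches 0.949%). All 6 genes lacked a UVC peak above 100, as did 74.8% of the dense windows. The median UVC score was 16 in MMS22L, 17 in XPO1, VEZT and YLPM1, 17.5 in ZCCHC11 and 20 in SPEN. It was below the list median in 5 of 6 genes, against 57.5% of the dense windows.

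In the UVA and iCLIP maps the same genes carried high-scoring peaks. Of the 132 UVA peaks, 126 (95.5%, interval 90.4 to 98.3) scored above 100, against 47.3% of the whole UVA list. Of the 132 iCLIP peaks, 80 (60.6%, interval 51.7 to 69.0) did so, against 24.0%. MMS22L alone supplied 52 of the 126 UVA and 40 of the 80 iCLIP peaks above 100. Without it the shares were 92.5% (74 of 80, interval 84.4 to 97.2) for UVA and 47.1% (40 of 85, interval 36.1 to 58.2) for iCLIP. Without SPEN all 122 of 122 UVA peaks exceeded 100. The intervals lay above the shares of the whole lists with all 6 genes and with any 1 gene left out. The UVA scores of MMS22L ran from 188 to 950 with a median of 455.5, those of VEZT from 294 to 537 (median 394) and those of YLPM1 from 172 to 1000 (median 307). ZCCHC11 ran from 176 to 881 (median 283) and XPO1 from 159 to 696 (median 252). In these 5 genes even the lowest UVA peak was above the UVA list median of 92. SPEN was apart, from 48 to 256 with a median of 97.5. The median UVA score was above the list median in 6 of 6 genes, against 87.6% of dense windows with at least 5 UVA sites. Most windows dense in UVC sites therefore shared this property.

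The iCLIP scores were also highest in MMS22L. The median was 178 in MMS22L, 107 in VEZT, 105 in ZCCHC11, 93 in YLPM1, 54 in SPEN and 30 in XPO1, against 47 over the list. The median was above that of the list in 5 of 6 genes, beside 80.0% of dense windows with at least 5 iCLIP sites. XPO1 was the exception. Its UVA peaks all scored 159 or more, whereas only 3 of its 13 iCLIP peaks exceeded 100 and the highest was 163. SPEN, with 4 of 10 UVA peaks and 1 of 8 iCLIP peaks above 100, was low in both. Sites also differed in width: the median UVC site was 22 nt wide in MMS22L and 39 to 41 nt in the other genes, against 49 nt over the list, and the median iCLIP site was 67 nt in MMS22L against 39 nt over the list.

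**Figure D4:**
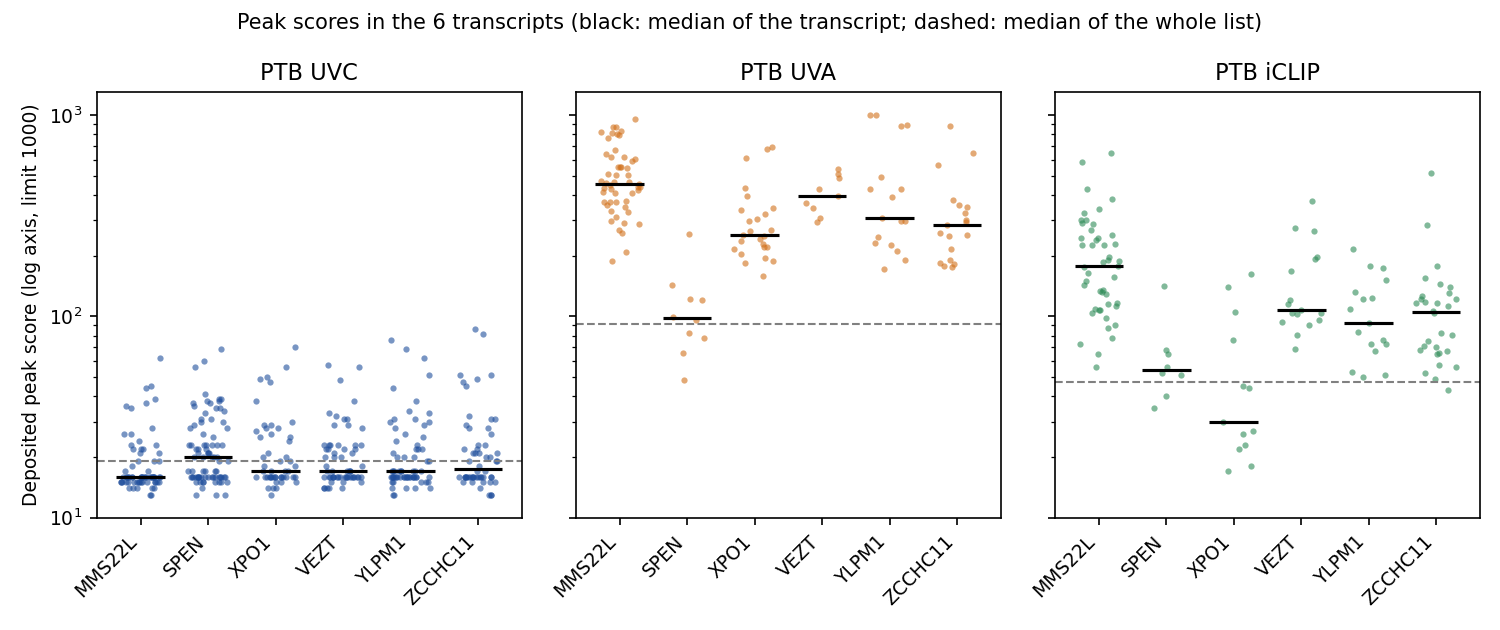
Deposited peak scores (log axis, limit 1000) of every peak in the 6 transcripts; points are peaks, black lines transcript medians and dashed lines the median of the whole list. UVC points stay at or below 86 in every gene, whereas UVA points lie above the list median of 92 in all genes except SPEN.

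UVC sites of the genes met the other PTB maps about as often as UVC sites elsewhere. Of the 286 UVC sites, 30 (10.5%, interval 7.19 to 14.6) overlapped a UVA site by at least 1 nt on the same strand, against 11.3% of all UVC sites. An iCLIP site was overlapped by 21 (7.34%, interval 4.60 to 11.0), against 6.25%. The intervals hold the values of the whole list. Neither map was met by 247 sites (86.4%, interval 81.8 to 90.1), against 86.1% over the list. UVC sites that met a UVA or iCLIP site had a median score of 22 (39 sites), and the others 17 (247 sites). Over the whole list these medians were 26 and 19.

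Seen from the other maps the overlap was larger. Of the 112 UVA sites in the genes, 28 (25.0%, interval 17.3 to 34.1) overlapped a UVC site, against 12.6% over the UVA list. Of the 111 iCLIP sites, 22 (19.8%, interval 12.9 to 28.5) did so, against 9.43%. The genes were chosen for dense UVC sites, so these shares are not independent of the choice. The choice did not use the overlap of UVA with iCLIP. Of the UVA sites, 34 (30.4%, interval 22.0 to 39.8) met an iCLIP site, against 18.95% over the list, and of the iCLIP sites 31 (27.9%, interval 19.8 to 37.2) met a UVA site, against 25.3%. The interval of the first share lay above that of the list and the interval of the second held it. Among genes, MMS22L supplied 17 of the 34 shared UVA sites and 14 of the 31 shared iCLIP sites. Without MMS22L the first share was 23.6% (17 of 72, interval 14.4 to 35.1), which holds the value of the list, and the second 21.2% (17 of 80, interval 12.9 to 31.8). Without MMS22L the first share was thus still higher than that of the list, but counting error no longer separated them.

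**Figure D5:**
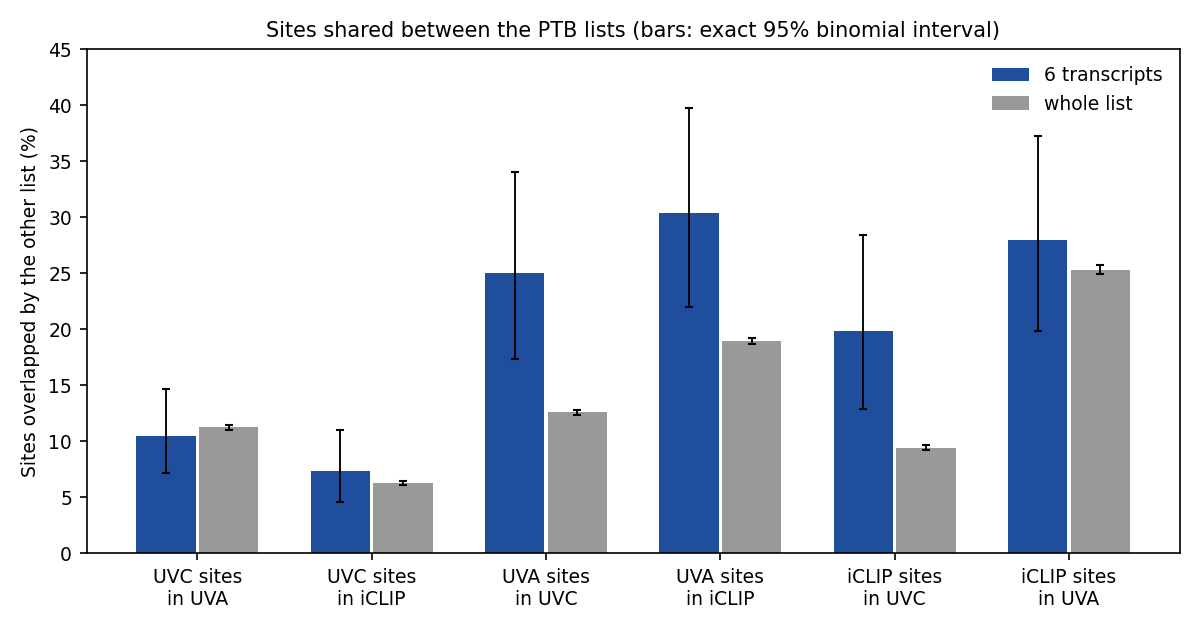
Percent of merged sites of one PTB list that overlap a site of another (y axis), in the 6 transcripts and over the whole list; error bars are exact 95% binomial intervals. UVC sites in the transcripts match the whole list in both shares (10.5% and 7.34%), and UVA sites in the transcripts lie above it (25.0% in UVC and 30.4% in iCLIP). The 25.0% is not independent of the choice of genes by UVC density. Without MMS22L the share of UVA sites in iCLIP was 23.6% (interval 14.4 to 35.1), and this interval holds the 18.95% of the list.

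Other sites lay near each other without touching. In the 6 genes 61 of 112 UVA sites (54.5%) and 54 of 111 iCLIP sites (48.6%) overlapped a UVC site or had one within 200 nt, against 27.8% and 22.6% over the whole lists. Of these, 33 UVA sites (29.5%) and 32 iCLIP sites (28.8%) were near without touching, against 15.2% and 13.2% over the lists. Closeness to UVC sites is not independent of the choice of genes by UVC density. The median distance to the nearest UVC site, with overlapping sites at 0, was 122 nt for UVA and 213 nt for iCLIP sites. From the UVC side, 24.1% of sites had a UVA site and 16.4% an iCLIP site within 200 nt, and the median distances were 1850 and 2886 nt. The genes held 286 UVC sites but only 112 UVA and 111 iCLIP sites, so many UVC sites had none nearby. These values from the UVC side were not taken over the whole UVC list. They are therefore not read as a trait of these genes. For VEZT the median distance from a UVC to a UVA site was 4160 nt, for ZCCHC11 5704 nt, for MMS22L 631 nt and for XPO1 677 nt.

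All 3 PTB maps shared 12 of the 286 UVC sites in the 6 genes (4.196%, interval 2.19 to 7.21), against 3.57% over the whole UVC list, and none of them lay on a control site. MMS22L held 7, ZCCHC11 2, and XPO1, VEZT and YLPM1 1 each; SPEN held none. In MMS22L 3 lay within 3 kb of the 3′ end of the gene interval. These were the UVC sites from 97591258 to 97591310 (UVC score 36, UVA 369, iCLIP 245), from 97592380 to 97592393 (15, 409 and 239 in the same order) and from 97592519 to 97592567 (22, 501 and 187). A second pair was 46.1 and 48.6 kb from the 5′ end. The site from 97684942 to 97684997 met the highest-scoring UVA peak of the gene, from 97684891 to 97684962 (UVC 39, UVA 950, iCLIP 581), and that from 97682512 to 97682556 met its highest-scoring iCLIP peak, from 97682514 to 97682590 (UVC 26, UVA 796, iCLIP 645). The others were from 97642626 to 97642640 (UVC 16, UVA 472, iCLIP 188) and from 97672945 to 97672971 (UVC 13, UVA 812, iCLIP 132). The last of these shows that a UVC score at the bottom of the range in these genes can go with a high UVA score.

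Outside MMS22L the shared sites had UVA scores below all 7 of that gene, except in VEZT. In ZCCHC11 they lay about 1 kb apart, from 52906858 to 52906910 (UVC score 28, UVA 177, iCLIP 144) and from 52907926 to 52907976 (UVC 31, UVA 350, iCLIP 178). In VEZT the site ran from 95652973 to 95653018 (UVC 22, UVA 511, iCLIP 120) and in XPO1 from 61747924 to 61747972 (UVC 19, UVA 221, iCLIP 44). In YLPM1 it ran from 75271250 to 75271270 (UVC 16, UVA 191, iCLIP 109), 41.2 kb from the 5′ end.

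The strongest peak of each map was rarely the same position. The highest-scoring UVC peak overlapped a UVA peak in MMS22L (97620492 to 97620577, score 62), a peak of PTB without UV in XPO1 (61724062 to 61724131, score 70) and YLPM1 (75230681 to 75230739, score 76), and no other list in SPEN (16205097 to 16205168, score 69), VEZT (95663047 to 95663108, score 57) and ZCCHC11 (52938915 to 52938930, score 86). The strongest UVA and iCLIP peaks coincided in SPEN, at 16221839 to 16221897 (UVA score 256) and 16221824 to 16221899 (iCLIP score 142), 47.5 kb from the 5′ end. They also coincided in ZCCHC11, at 52981328 to 52981412 (UVA 881) and 52981334 to 52981457 (iCLIP 513), 37.4 kb from the 5′ end. No UVC peak overlapped either position. In XPO1 the strongest UVA peak, from 61742496 to 61742589 (score 696), met an iCLIP peak and the strongest iCLIP peak, from 61725669 to 61725747 (score 163), met a UVA peak. In VEZT the strongest UVA peak (95670623 to 95670648, score 537) and the strongest iCLIP peak (95691343 to 95691532, score 375) met no other list. In YLPM1 the strongest UVA peak, the wider of 2 at the score limit, ran from 75230786 to 75230938 and met a UVC peak. It lay next to the control site of that gene. The strongest iCLIP peak of YLPM1, from 75271308 to 75271368 (score 215), 41.3 kb from the 5′ end, met a UVA peak.

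Control sites were few. At least 1 was found in 5 of 6 genes, against 51.3% of the dense windows, and VEZT had none. PTB without UV gave 1 site each in MMS22L (97697563 to 97697611, score 16), SPEN (16266482 to 16266529, score 17), XPO1 (61724093 to 61724142, score 16) and YLPM1 (75230713 to 75230762, score 49). YFP gave 2 sites in ZCCHC11, from 52903545 to 52903630 (score 16) and from 52940485 to 52940575 (score 17). The sites of XPO1 and YLPM1 lay on the strongest UVC peak of their gene, and the other 4 met no PTB site. Over all 6 genes 2 of 286 UVC sites (0.699%, interval 0.0848 to 2.50) lay on a control site, against 0.784% of the whole list. No UVA or iCLIP site did.

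Along the genes, UVC sites were spread widely and thinned toward the 5′ end. When each interval was divided into 10 equal parts from 5′ to 3′, 3 of the 60 parts lacked a UVC site, against 25 without a UVA and 21 without an iCLIP site; the UVA and iCLIP lists have fewer sites to fill the parts. Summed over the genes the UVC sites numbered 14, 14, 22, 29, 29, 27, 28, 36, 42 and 45 in parts 1 to 10. The 3′-most 5 parts thus held 178 of 286 UVC sites (62.2%, interval 56.3 to 67.9). They held 57.1% of UVA sites (interval 47.4 to 66.5) and 54.1% of iCLIP sites (interval 44.3 to 63.6), whose intervals contain 50. Without XPO1 or without ZCCHC11 the UVA share was 63.6% (interval 52.7 to 73.6) or 62.8% (interval 52.2 to 72.5), and these intervals lay above 50. Without MMS22L the UVA share was 50% (36 of 72). It also fell without SPEN, VEZT or YLPM1, and the interval held 50 each time. The iCLIP share was 48.75% without MMS22L and 46.99% without ZCCHC11. It rose without each of the other genes, and its interval always held 50. No joint lean is therefore read for UVA or iCLIP sites.

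The lean toward the 3′ end was not the same in every gene. For UVC it was 76.6% in ZCCHC11 (interval 62.0 to 87.7), 69.0% in XPO1 (interval 52.9 to 82.4), 63.6% in MMS22L (interval 50.9 to 75.1) and 62.7% in SPEN (interval 48.1 to 75.9). VEZT, at 51.3% (interval 34.8 to 67.6), and YLPM1, at 46.3% (interval 30.7 to 62.6), were near even. In XPO1 8 of 24 UVA sites (33.3%, interval 15.6 to 55.3) and 4 of 13 iCLIP sites (30.8%, interval 9.09 to 61.4) lay in the 3′-most 5 parts. UVC sites there numbered 29 of 42, and the intervals of the 3 maps overlapped. In ZCCHC11 UVA sites also lay toward the 5′ end (5 of 18 in the 3′-most 5 parts), while iCLIP sites (21 of 28) were placed like UVC sites. In MMS22L all 3 maps leaned to the 3′ end, with 70.0% of UVA and 67.7% of iCLIP sites there, and 12 UVA and 9 iCLIP sites in the last part alone.

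The 5 kb stretch of a gene with the most sites often differed between maps. Whether sites were grouped beyond their density was not tested. The densest 5 kb of a gene held 8 to 10 UVC sites, 4 to 8 UVA sites and 3 to 10 iCLIP sites. The lists differ in site number, so these counts do not compare how far each map is grouped. In MMS22L the densest 5 kb for UVA, at the 3′ end, held 8 UVA, 8 iCLIP and 8 UVC sites, so all maps met there. In VEZT the densest 5 kb of the iCLIP map, near 39.1 kb from the 5′ end, held 9 of its 16 iCLIP sites with 4 UVC and 2 UVA sites. In YLPM1 a stretch near 30.3 kb held 10 of its 15 iCLIP sites and 8 UVC sites but no UVA site. ZCCHC11 showed both kinds: 9 iCLIP and 3 UVC sites with no UVA site near 73.4 kb, and 6 UVA sites and 1 iCLIP site with no UVC site near 42.4 kb. In SPEN the densest UVC stretch, near 81.7 kb, had 8 UVC and 2 UVA sites and no iCLIP site. In XPO1 the densest UVC and UVA stretches overlapped near 42.1 kb, with 9 UVC, 5 UVA and 1 iCLIP site, and the site of PTB without UV lay in the same stretch. These stretches were picked for their counts, so they are descriptions.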

How the data were processed

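Peaks of 5 lists were analysed: 1 pooled list for each of 4 groups of 2 samples and 1 iCLIP list. Reads were mapped with Bowtie 1.1.2, and hg19 and dm3 were named as builds, per the submitters' processing notes. How peaks were called and replicates pooled was not given in the sources used here. Each peak's deposited p-value was at most 0.05, and the deposited score was used as given by the authors, with a limit of 1000 read from the values. Where both p-value and score were 0, the score was set to the limit, a reading also taken from the values. Starts were rewritten 1-based. Members were found by overlap of at least 1 nt with the hg19 gene interval on the same strand. Peaks within 20 nt were merged into sites.

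Genes, windows, thresholds and stretches were chosen with earlier results of these data known. Named were all 6 genes, in each gene the highest-scoring peak of each PTB list, every site shared by the 3 PTB lists and every control site. Shares carry exact Clopper-Pearson 95% intervals, densities exact Poisson intervals, and ratios of counts intervals derived from the exact binomial share. Background windows were 100 kb on 1 strand with at least 20 UVC sites. Member counts matched bedtools 2.31.1 in 30 of 30 comparisons, and the merging and overlap functions recovered 6 of 6 planted results when tested on simulated data. Scripts ran in Python 3.11.15 (matplotlib 3.10.9, scipy 1.17.1, pandas 2.3.3, numpy 2.4.6). Sequence at the sites was not analysed here, since no hg19 genome was used.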

Additional observations from a re-analysis of the deposited data

How the results depend on the processing

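Of 140 alternative values for the 6 genes jointly, 130 stayed within the limits set for their kind. These were the counting interval for shares and ratios, and 1.5 times for site numbers. For the median percentile among windows they were the lowest and highest of the 6 genes, which is not a counting interval. The score mattered most. With peaks at or above the median score of each list, UVC sites fell from 286 to 130 and the UVC to UVA ratio from 2.55 to 1.20. In that setting, which was added after seeing the data for ranks, the median percentile of the genes among windows by UVC sites was 99.7; it was 99.97 when peaks were counted as deposited. The share of UVC sites in UVA was 5.59% when at least 50% of the site had to be covered (7.30% over the whole list). With 5 parts per gene in place of 10, where fewer and longer parts are less often empty by construction, 0% of parts lacked a UVC site, 20% a UVA site and 16.7% an iCLIP site. For single genes, 31 of 168 alternative values moved, with the median score as a minimum, with unmerged peaks or, for the UVC rank of SPEN, with shifted windows. Leaving out each gene in turn moved neither the UVC to UVA ratio nor the shares of UVC sites in other lists beyond their intervals. For the other joint shares and the iCLIP to UVA ratio this was added after seeing the data. There 2 values moved: 47.1% of iCLIP peaks exceeded 100 without MMS22L, and 100% of UVA peaks without SPEN. No paired analysis was possible because replicates were pooled into 1 list per group, and for the same reason no replicate could be left out.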
